A study of Homo sapiens with 48 samples.

Results

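To describe the enhancers that FOSL1 occupied without NF-κB in pancreatic cancer cells, distal acetylated FOSL1 sites were taken from ChIP-seq peak lists of L3.6pl, a human pancreatic ductal adenocarcinoma (PDAC) cell line. A site was a FOSL1 peak of vehicle-treated cells on chromosomes 1 to 22 or X that overlapped none of the 10 RELA and RELB peak lists. Its summit lay more than 1 kb from every protein-coding transcription start site, and an H3K27ac peak of vehicle-treated cells lay within 500 bp of the summit. Of 60353 FOSL1 peaks, 58828 were on these chromosomes, 50097 of those had no RELA or RELB overlap, 40480 were also distal and 24667 were also acetylated. The 24667 sites thus made up 41.9% of the FOSL1 peaks considered. Vehicle FOSL1, vehicle H3K27ac and all RELA and RELB lists chose the sites, and the 4 H3K27ac lists of treated cells did not.

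All samples came from this 1 line, and the labels name no genetic change in it. Cells received vehicle (PBS), TNFα for 30 min or 6 h, or TWEAK for 30 min or 6 h. The series holds 48 samples in 16 conditions of 3 replicates: H3K27ac, RELA and RELB in all 5 treatments, and FOSL1 in vehicle alone. The authors pooled the replicates of a condition before calling peaks, so each condition is 1 list and no replicate error can be given. For RELA at 30 min of TNFα the labels leave unsettled whether all 3 replicates were merged. The intervals and tests count sites within these lists. They do not measure the spread between cultures, and sites that share an H3K27ac peak are not independent. The depth of the samples is unknown from these files.

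FOSL1, also called FRA-1, is a FOS family subunit of AP-1. It has no strong activation domain, pairs with a JUN protein and binds the 7-base sequence TGANTCA, and MAPK signaling stabilizes it. H3K27ac marks active promoters and enhancers, and distal AP-1 sites make up much of the enhancer repertoire of epithelial cancer cells. TNFα acts mainly through RELA in the canonical NF-κB pathway, while TWEAK also engages the noncanonical pathway that ends in RELB. The cell type was checked through vehicle H3K27ac at start sites. All 6 epithelial markers (KRT7, KRT8, KRT18, KRT19, EPCAM and CDH1) carried a peak, compared with 0 of 5 acinar and 0 of 3 endocrine markers. The exceptions among other lineages were CD68 (1 of 4 immune markers), VWF (1 of 3 endothelial) and COL1A1 and COL3A1 (2 of 4 fibroblast).

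The following sequences show sites among the strongest by FOSL1 fold enrichment (ChIP over input) for 3 courses of H3K27ac. Each runs 50 bases to either side of the FOSL1 summit and was read from the plus strand of hg38, with every TGANTCA in capitals. The motif reads the same in form on both strands. The first set kept an H3K27ac peak in all 4 treated lists.
CRHR1, chr17:45705554-45705654: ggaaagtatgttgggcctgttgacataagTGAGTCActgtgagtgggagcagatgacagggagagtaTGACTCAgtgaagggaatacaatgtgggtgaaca
FLT1, chr13:28476301-28476401: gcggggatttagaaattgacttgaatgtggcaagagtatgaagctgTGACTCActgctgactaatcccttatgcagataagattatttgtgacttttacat
TEP1, chr14:20401218-20401318: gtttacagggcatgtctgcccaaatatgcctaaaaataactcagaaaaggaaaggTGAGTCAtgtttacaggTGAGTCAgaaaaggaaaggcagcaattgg
In the next set, no H3K27ac peak was called in any treated list.
METTL15, chr11:28346349-28346449: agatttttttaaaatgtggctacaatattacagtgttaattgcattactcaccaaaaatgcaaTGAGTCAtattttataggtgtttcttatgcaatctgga
TOPAZ1, chr3:44105047-44105147: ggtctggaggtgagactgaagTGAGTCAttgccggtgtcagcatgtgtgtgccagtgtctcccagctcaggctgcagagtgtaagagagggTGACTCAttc
HAPLN1, chr5:83583994-83584094: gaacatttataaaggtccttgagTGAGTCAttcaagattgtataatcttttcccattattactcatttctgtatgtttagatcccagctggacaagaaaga
The last set had no peak in either 30 min list and a peak in both 6 h lists.
ERC2, chr3:56132347-56132447: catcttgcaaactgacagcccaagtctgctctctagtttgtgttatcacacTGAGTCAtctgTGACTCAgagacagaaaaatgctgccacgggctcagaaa
FGFRL1, chr4:1043771-1043871: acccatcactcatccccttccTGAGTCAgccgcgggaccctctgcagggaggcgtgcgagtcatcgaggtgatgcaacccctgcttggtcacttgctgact
PRRX1, chr1:170708117-170708217: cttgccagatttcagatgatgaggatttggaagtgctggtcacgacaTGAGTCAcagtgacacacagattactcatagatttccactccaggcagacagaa
Each of the 9 sequences holds at least 1 TGANTCA, whatever the course of H3K27ac. The FLT1 and PRRX1 summits fall on the motif itself.

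The distal acetylated sites were spread over enhancer-like positions. Of the 24667 summits, 50.6% were intergenic, 46.9% lay in an intron and 2.52% in an exon of a protein-coding gene. The median distance to a start site was 35238 bp, with quartiles at 12399 and 98180 bp. At the 1-kb limit, 2 acetylated FOSL1 summits without RELA or RELB lay 1000 bp from a start site and stayed out, while 3 at 1001 bp came in. At the 500-bp limit, 1 distal summit lay 500 bp from its vehicle H3K27ac peak and 1 left out lay 501 bp away. The median FOSL1 fold enrichment was 5.74 (quartiles 4.33 and 8.65). The vehicle H3K27ac peak at a site had a median fold enrichment of 3.16 and a median length of 999 bp, and 64.7% of summits lay inside that peak. Tandem repeats, defined as windows of 1000 bp that match themselves when shifted, held 362 sites (1.47%).

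H3K27ac was then followed into the treated lists. After 30 min of TNFα, 18560 sites (75.2%, interval 74.7 to 75.8%) had a peak within 500 bp of the summit. The 6107 sites without a peak were 24.8%, beside 16.9% of all 39623 acetylated FOSL1 regions. After 6 h of TNFα, 22670 sites (91.9%, 91.6 to 92.2%) had a peak and 1997 (8.10%) did not, beside 6.18% of all acetylated regions. After 30 min of TWEAK, 19357 sites (78.5%, 78.0 to 79.0%) had a peak and 5310 (21.5%) did not, beside 14.9%. After 6 h of TWEAK, 21542 sites (87.3%, 86.9 to 87.7%) had a peak and 3125 (12.7%) did not, beside 9.47%. The sites were selected on a peak in vehicle, so a lower share after treatment is a description with no test. The background shares include the same sites, which were 24667 of the 39623 regions.

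The treated lists, which took no part in the selection, were compared with each other at the same sites by the exact McNemar test (two-sided, adjusted over 6 pairs). Each list is 1 merged condition, so the test compares peak calls over sites and not treatments over cultures. More sites were acetylated at 6 h than at 30 min for both ligands. For TNFα, 496 sites had a peak at 30 min alone and 4606 at 6 h alone, a ratio of 0.108 (0.0980 to 0.118). For TWEAK the numbers were 922 and 3107, a ratio of 0.297 (0.275 to 0.319). Between ligands, 1053 sites had a peak only after TNFα and 1850 only after TWEAK at 30 min, a ratio of 0.569 (0.527 to 0.614, adjusted exact McNemar p = 5.28e-50). At 6 h the order was reversed, with 1815 sites after TNFα alone and 687 after TWEAK alone, a ratio of 2.64 (2.42 to 2.89, adjusted exact McNemar p = 2.12e-116). The shares had the order TNFα 30 min, TWEAK 30 min, TWEAK 6 h and TNFα 6 h, from low to high, on each of the 23 chromosomes. On single chromosomes the share at 30 min of TNFα ran from 69.0% (chromosome 13) to 81.3% (chromosome 19), and at 6 h of TNFα from 90.8% (chromosome 19) to 95.3% (chromosome 21).

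The lists differ in extent, which bears on these shares. The H3K27ac list covered 55.5 Mb in vehicle, 45.1 Mb after TNFα for 30 min, 55.5 Mb after TNFα for 6 h, 46.9 Mb after TWEAK for 30 min and 46.4 Mb after TWEAK for 6 h. The number of regions was 53861, 61154, 55784 and 57982 in the order TNFα 30 min, TNFα 6 h, TWEAK 30 min and TWEAK 6 h, the same rank order as the shares of sites. With the 45000 strongest peaks of each list, all 6 pairs kept their direction and came closer to 1. This cut included the vehicle list, which left 20723 sites, so the ratios before and after rest on different sites. The ratio moved from 0.108 to 0.227 for 30 min against 6 h of TNFα, from 0.297 to 0.418 for 30 min against 6 h of TWEAK, from 0.569 to 0.633 between ligands at 30 min and from 2.64 to 1.72 between ligands at 6 h. How much of the differences comes from peak calling or depth was not tested.

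**Figure D1:**
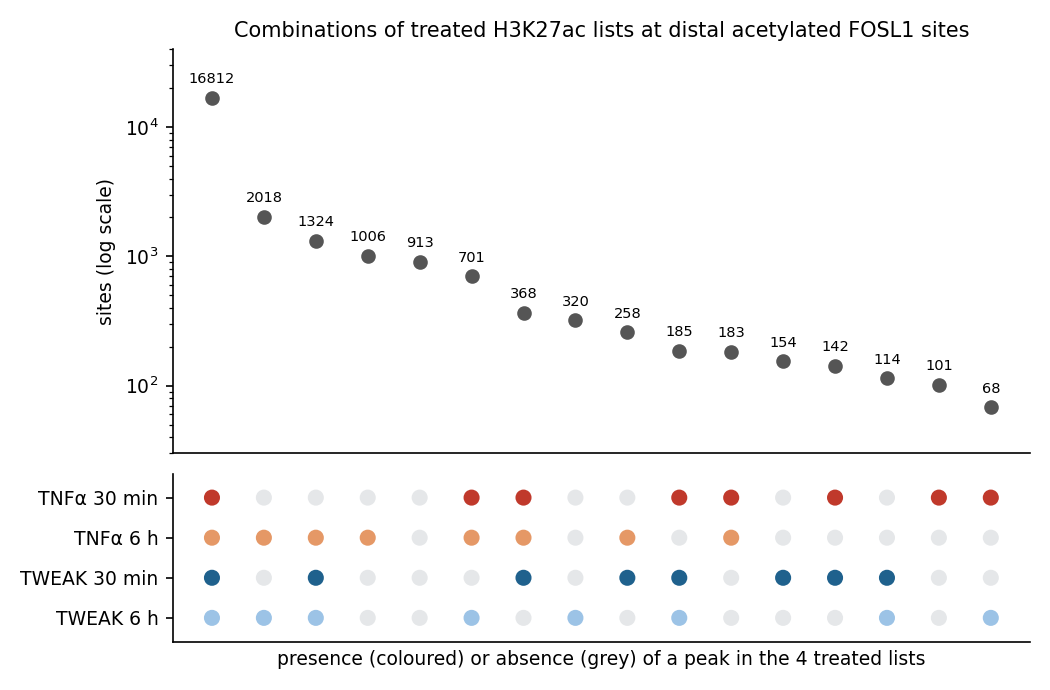
Number of distal acetylated FOSL1 sites (vertical axis, log scale, value printed above each point) for each of the 16 combinations of treated H3K27ac lists, with coloured dots below for lists that hold a peak and grey dots for lists that do not. The 16812 sites with a peak in all 4 lists lead, followed by 2018 sites with a peak in both 6 h lists and none at 30 min.

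Combining the lists, 16812 sites (68.2%) had a peak in all 4 treated lists and 913 (3.70%) in none. The plot of list combinations shows that the commonest course between these was absence at both 30 min lists and presence at both 6 h lists, with 2018 sites (8.18%). The opposite course, both 30 min lists and no 6 h list, held 142 sites (0.576%). A further 1324 sites (5.37%) lacked a peak at 30 min of TNFα alone, and 1006 (4.08%) had a peak at 6 h of TNFα alone. Courses that separate the ligands were rare: 183 sites (0.742%) had a peak in both TNFα lists and no TWEAK list, and 114 (0.462%) in both TWEAK lists and no TNFα list. Of the 4257 sites without a peak in either 30 min list, 3024 (71.0%, 69.6 to 72.4%) had one at 6 h of TNFα and 2338 (54.9%, 53.4 to 56.4%) at 6 h of TWEAK. Most sites without a peak at 30 min thus had one at 6 h, although the times are separate samples. Over all 24667 sites the shares at 6 h were higher, at 91.9% for TNFα and 87.3% for TWEAK.

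Single sites show what these courses look like. At the strongest site of all, 78716 bp from the start of CRHR1 (chr17:45705409-45705762, in an intron of the LINC02210-CRHR1 readthrough gene, FOSL1 fold enrichment 31.1), H3K27ac fold enrichment was 3.18 in vehicle. It was 3.27 and 2.79 at 30 min and 6 h of TNFα and 3.15 and 3.61 at 30 min and 6 h of TWEAK. The site in FLT1, which encodes a VEGF receptor (chr13:28476186-28476587, intron, FOSL1 26.5), had 3.89 in vehicle and 3.06, 3.53, 2.71 and 3.13 in the same order. The site in TEP1 (chr14:20401027-20401432, FOSL1 25.7) had 4.001 in vehicle and between 3.73 and 4.75 after treatment, and the site near OSBPL9 (chr1:51569734-51570195, FOSL1 25.4) had 3.40 in vehicle and between 3.27 and 3.34 after treatment. At 6 h of TNFα the fold was below that of vehicle at each of these 4 sites, and in the other lists the sites differed in direction. A site of this set that is not reported here is not covered by this statement.

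The strongest sites with no treated peak had narrow vehicle peaks. The site in METTL15 (chr11:28346250-28346592, intron, FOSL1 20.7) had a vehicle H3K27ac peak of 274 bp and 2.38-fold enrichment. The intergenic site 136789 bp from TOPAZ1 (chr3:44104962-44105267, FOSL1 20.7) had a peak of 396 bp and 2.81-fold. The remaining 3, nearest to HAPLN1, HSPA4 (within an intron of FSTL4) and ANK1, had FOSL1 folds between 19.8 and 20.6, and vehicle peaks of 226, 226 and 237 bp. All 5 vehicle peaks were thus shorter than that of any of the 4 sites named above, of which the shortest was 413 bp.

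Among sites with a peak in both 6 h lists and none at 30 min, the strongest lay in ERC2 (chr3:56132145-56132572, intron, FOSL1 26.1). Its H3K27ac fold was 3.92 in vehicle, and 3.45 and 4.23 at 6 h of TNFα and TWEAK. The intergenic site 31370 bp from FGFRL1, a receptor of the FGF receptor family without a kinase domain (chr4:1043611-1044004, FOSL1 23.6), had 3.15 in vehicle, and 4.12 and 3.02 at 6 h. The site in PRRX1, a mesenchymal homeobox factor (chr1:170708028-170708529, intron, FOSL1 23.3), had 3.95 in vehicle, and 4.17 and 4.51 at 6 h. The PRRX1 vehicle peak was 1344 bp long, so absence at 30 min was not restricted to narrow peaks.

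For the ligand-separated courses, the 3 strongest TNFα sites lay in UBE3B (an exon), SOCS5, a suppressor of cytokine signaling, and TBC1D8. Their FOSL1 folds were between 16.1 and 16.7 and their H3K27ac folds between 2.30 and 2.98 in the TNFα lists. The 3 strongest TWEAK sites lay in introns of ZBTB20, ANO5 and HECW1, with FOSL1 folds between 12.9 and 13.6 and H3K27ac folds between 2.57 and 3.93 in the TWEAK lists. All 6 vehicle peaks were shorter than 500 bp, with lengths between 285 and 475 bp.

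**Figure D2:**
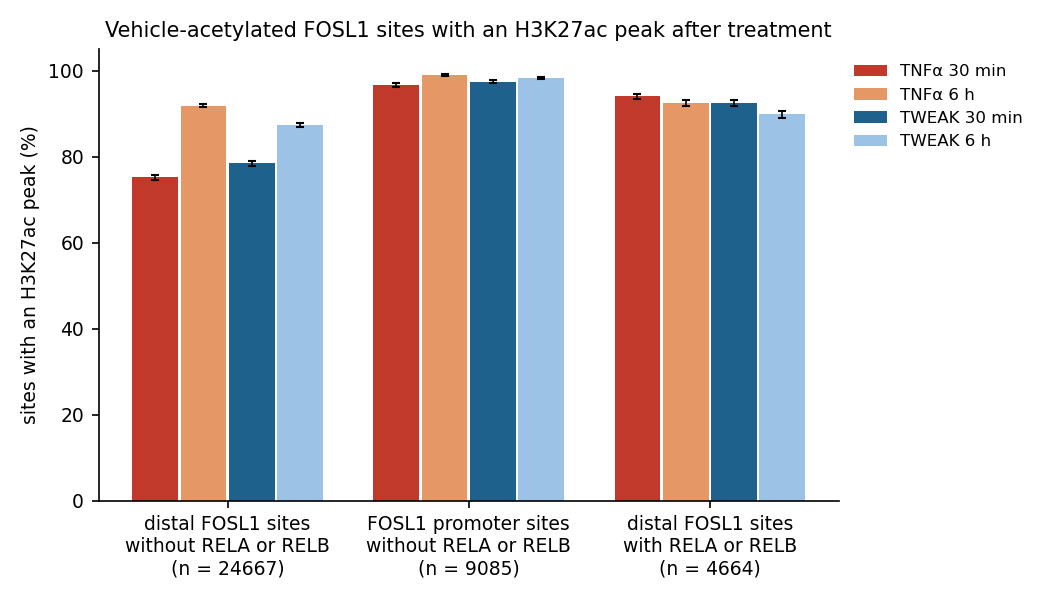
Share of vehicle-acetylated FOSL1 sites with an H3K27ac peak within 500 bp in each treated list (vertical axis, percent), for distal sites without RELA or RELB, promoter sites without RELA or RELB, and distal sites with RELA or RELB. Bars are shares and error bars are exact 95% binomial intervals over sites, which hold no replicate error, and the 75.2% at 30 min of TNFα is the lowest bar.

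To see whether this loss was particular to distal sites, the same count was made at 9085 acetylated FOSL1 promoter sites, which also lacked RELA and RELB but had a summit within 1 kb of a start site. A peak remained at 96.7%, 98.9%, 97.5% and 98.4% of the promoter sites after TNFα 30 min, TNFα 6 h, TWEAK 30 min and TWEAK 6 h. The odds of having no peak were higher at distal sites by 9.63 times (8.55 to 10.9), 8.25 times (6.71 to 10.2), 10.7 times (9.31 to 12.2) and 8.88 times (7.51 to 10.6) in that order (Fisher's exact intervals). The distal share was below the promoter share on 23 of 23 chromosomes in each of the 4 lists. Promoters had stronger vehicle H3K27ac, with a median fold of 4.03 against 3.16 and a median length of 1542 against 999 bp. Within 16 strata of vehicle peak fold and length, the odds ratios (Mantel-Haenszel) were 2.93 (2.56 to 3.35), 1.61 (1.28 to 2.02), 3.10 (2.66 to 3.61) and 1.98 (1.64 to 2.39). The difference was smaller within strata and had the same direction in every list.

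The second comparison was with 4664 distal acetylated FOSL1 sites that overlapped RELA or RELB in at least 1 list. There a peak was found at 94.0% after 30 min and 92.5% after 6 h of TNFα, and at 92.5% and 89.9% after 30 min and 6 h of TWEAK. Without NF-κB the odds of having no peak were 5.19 times higher (4.58 to 5.90) at 30 min of TNFα and 3.40 times (3.04 to 3.82) at 30 min of TWEAK. At 6 h they were 1.09 times (0.970 to 1.23, Fisher's exact p = 0.149) for TNFα and 1.29 times (1.17 to 1.43) for TWEAK. The share without NF-κB was the lower on 23 of 23 chromosomes at 30 min and 15 at 6 h of TNFα. For TWEAK it was the lower on 22 at 30 min and 16 at 6 h. The RELA or RELB sites differ in sequence: 37.1% of them lay in tandem repeats against 1.47% of the sites without NF-κB. Outside tandem repeats (24305 and 2935 sites) the odds ratios were 12.0 (9.59 to 15.3), 8.88 (6.11 to 13.4), 5.19 (4.39 to 6.19) and 4.66 (3.75 to 5.86) in the order TNFα 30 min, TNFα 6 h, TWEAK 30 min and TWEAK 6 h. The near-equality at 6 h of TNFα therefore did not hold once tandem repeats were left out. Both sets were split by RELA and RELB in the same treated cells, and the H3K27ac lists played no part in that split.

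The course of absence at 30 min and presence at both 6 h lists was also compared between these sets. It was found at 8.18% (7.84 to 8.53%) of the distal sites without NF-κB, at 0.936% (0.748 to 1.16%) of the promoter sites and at 1.11% (0.834 to 1.46%) of the RELA or RELB sites. Outside tandem repeats the shares were 8.23%, 0.906% and 1.09%.

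**Figure D3:**
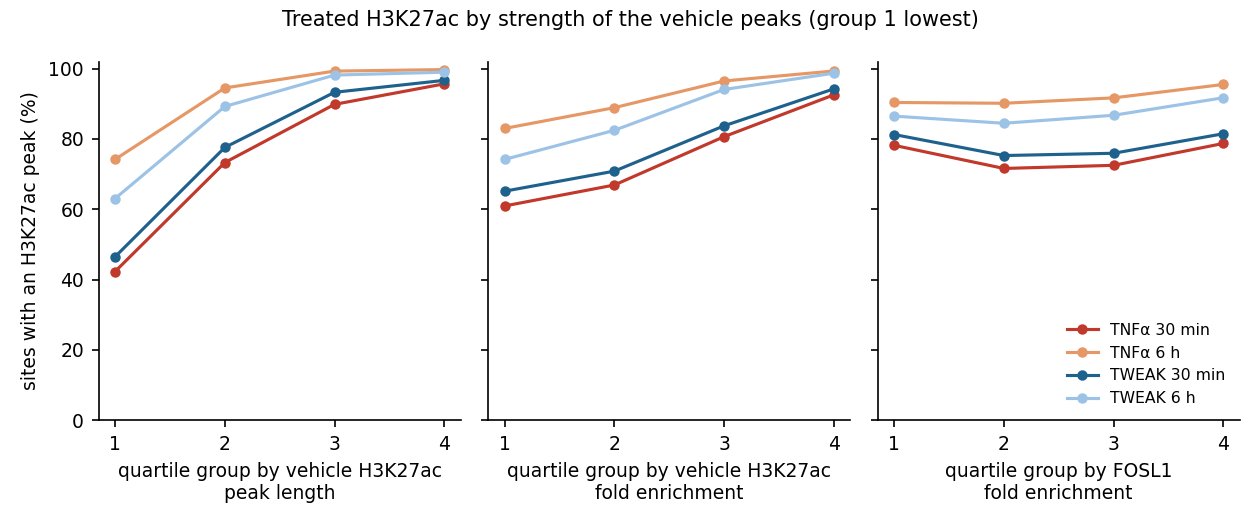
Share of distal acetylated FOSL1 sites with an H3K27ac peak in each treated list (vertical axis, percent) by quartile of vehicle H3K27ac peak length, vehicle H3K27ac fold enrichment and FOSL1 fold enrichment (horizontal axes, 1 lowest to 4 highest). Points are shares of sites; they rise steeply with peak length, from 42.3% to 95.6% at 30 min of TNFα, and little with FOSL1 fold.

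Whether a distal site kept its peak varied with the vehicle H3K27ac peak more than with FOSL1. In the quartile of sites with the shortest vehicle peaks (226 to 536 bp), 42.3% had a peak at 30 min of TNFα and 74.2% at 6 h. In the quartile with the longest peaks (1452 to 4530 bp) the shares were 95.6% and 99.7%. TWEAK gave 46.5% and 63.1% in the shortest quartile and 96.6% and 99.0% in the longest. By vehicle H3K27ac fold, the share at 30 min of TNFα ran from 60.9% in the lowest quartile to 92.5% in the highest. By FOSL1 fold the share at 30 min of TNFα was 78.2%, 71.6%, 72.5% and 78.7% from the lowest to the highest quartile, with no single direction. At 6 h the shares were 90.4%, 90.1%, 91.7% and 95.5% for TNFα and 86.5%, 84.4%, 86.7% and 91.7% for TWEAK. The highest FOSL1 quartile had the highest share in all 4 lists. Sites with a peak in none of the treated lists had a median vehicle peak of 313 bp, against 1235 bp for sites with a peak in all 4. A short or weak vehicle peak lies near the calling threshold, and its absence from another list was not tested against depth.

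The position of the summit moved with the same measure. Of the 15957 sites with a summit inside the vehicle H3K27ac peak, 86.1% had a peak at 30 min of TNFα, compared with 55.4% of the 8710 sites with a summit beside it. The median lengths of the vehicle peaks were 1252 and 468 bp. Sites more than 100 kb from a start had a peak at 30 min of TNFα in 69.4%, compared with 78.5% of sites 1 to 5 kb away, while the shares at 6 h of TNFα were 90.7% and 92.3%.

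Levels are given for sites with a peak called in every list, a choice that keeps each value above the calling threshold. At the 16812 sites with a peak in all 4 lists, the median H3K27ac fold was 3.35 in vehicle, 3.19 and 3.29 at 30 min and 6 h of TNFα, and 3.23 and 3.44 at 30 min and 6 h of TWEAK. The median peak length was 1235 bp in vehicle, 967 and 1203 bp after TNFα, and 1038 and 979 bp after TWEAK. Peaks at these sites were thus shorter than in vehicle in all treated lists, least so at 6 h of TNFα. The median length over each whole list was 781 bp in vehicle, 676 and 744 bp after TNFα, and 672 and 627 bp after TWEAK. Fold enrichments of different lists share no common scale and were not tested against each other.

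**Figure D4:**
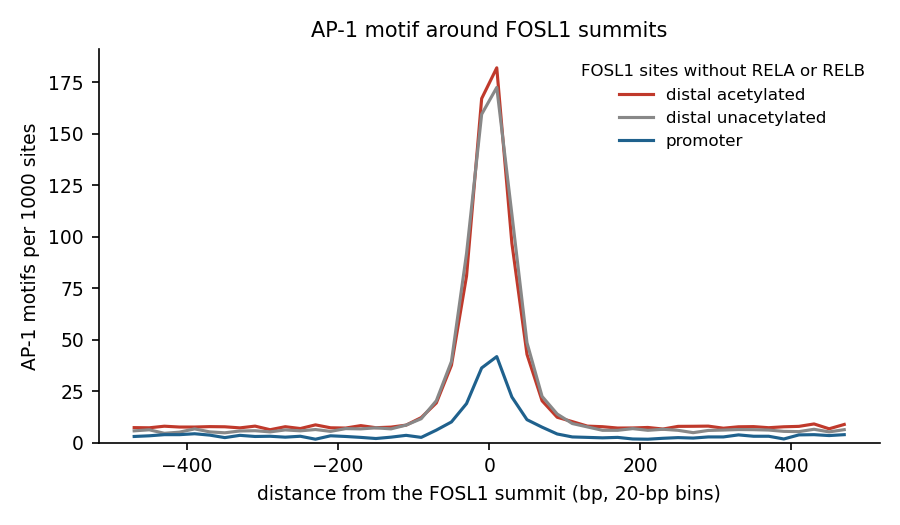
Number of AP-1 motifs per 1000 sites (vertical axis) in 20-bp bins by distance from the FOSL1 summit (horizontal axis, bp), for distal acetylated, distal unacetylated and promoter FOSL1 sites without RELA or RELB. The distal acetylated curve peaks at 182 motifs per 1000 sites in the bin centred at 10 bp and lies near 7.91 beyond 400 bp.

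The AP-1 motif was then counted, since sequence played no part in the choice of sites. A TGANTCA on either strand lay within the 200 bp around the summit at 13622 distal acetylated sites (55.2%, 54.6 to 55.8%), against 6.04% of windows of the same length 2 kb to either side. The form TGAGTCA, which reads TGACTCA on the other strand, was present at 46.9% and the form TGAATCA or TGATTCA at 12.2%. Of the sites, 45.1% held 1 copy and 10.1% held 2 or more, and at 38.4% the nearest copy lay within 25 bp of the summit. The motif was present at 14.8% (14.1 to 15.5%) of promoter sites and at 32.1% (30.7 to 33.4%) of distal RELA or RELB sites. Of these RELA or RELB sites 37.1% lay in tandem repeats, and their motif share outside the repeats was not counted.

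Against the 15813 distal FOSL1 sites without vehicle H3K27ac, the motif was no more frequent at acetylated sites. It was present at 57.4% (56.6 to 58.1%) of the unacetylated sites, an odds ratio of 0.917 (0.881 to 0.955, Fisher's exact p = 2.58e-05) for acetylated against unacetylated. Counted over the whole FOSL1 peak, which was longer at acetylated sites (median 272 against 184 bp), the odds ratio was 0.995 (0.955 to 1.04). Tandem repeats held 10.2% of the unacetylated and 1.47% of the acetylated sites. Outside them the odds ratio in 200 bp was 0.730 (0.699 to 0.762), so the motif was rarer at acetylated sites there. Median FOSL1 fold was higher at the acetylated sites, at 5.74 against 4.75.

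**Figure D5:**
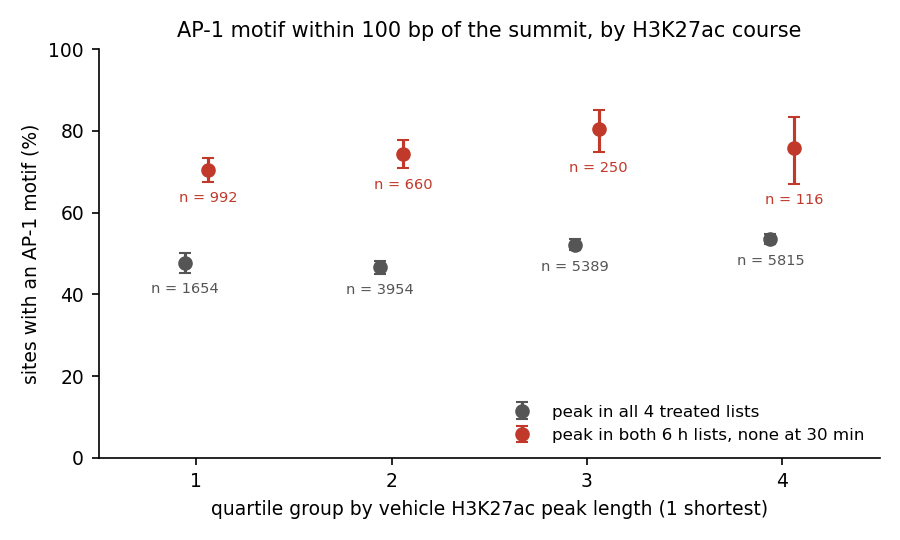
Share of distal acetylated FOSL1 sites with an AP-1 motif in the 200 bp around the summit (vertical axis, percent) by quartile of vehicle H3K27ac peak length (horizontal axis), for sites with a peak in all 4 treated lists and sites with a peak in both 6 h lists and none at 30 min. Points are shares, error bars exact 95% binomial intervals over sites, and the late sites lie above the others in each quartile, for example at 70.5% against 47.7% among the shortest peaks.

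The motif share differed between the courses of H3K27ac. The motif was present at 1479 of 2018 sites (73.3%, 71.3 to 75.2%) with peaks in both 6 h lists and none at 30 min, compared with 8554 of 16812 sites (50.9%, 50.1 to 51.6%) with peaks in all 4 lists. The odds ratio was 2.65 (2.39 to 2.94), and 2.64 (2.36 to 2.96) within the 16 strata of vehicle peak fold and length. This comparison was chosen after the shares had been seen. In every quartile of vehicle peak length the share was higher at the late sites: 70.5% against 47.7%, 74.4% against 46.6%, 80.4% against 52.1% and 75.9% against 53.5%, from short to long. FOSL1 fold moved with the course as well, with medians of 6.23 and 5.84. Within quartile groups of FOSL1 fold the shares were 48.8% against 20.5%, 64.2% against 32.8%, 79.8% against 61.4% and 91.4% against 86.3%, from low to high. The gap was thus narrowest at the strongest FOSL1 sites. The 913 sites with no treated peak held the motif at 65.1% (61.9 to 68.2%), and the 142 sites with peaks at both 30 min lists and no 6 h list at 46.5% (38.1 to 55.0%). The 1006 sites with a peak at 6 h of TNFα alone held it at 68.8% (65.8 to 71.6%). By vehicle peak length, from short to long, the sites with no treated peak held it at 66.8%, 54.4%, 43.8% and 70.0% (784, 103, 16 and 10 sites). By FOSL1 fold, from low to high, they held it at 39.0%, 59.7%, 83.0% and 93.9%. A share above that of the sites in all 4 lists was thus not particular to the late sites. The intervals of the late sites and of the sites with peaks at 30 min alone did not overlap.

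Read the other way, the share of sites with a peak at 30 min fell with the number of motifs, and the share at 6 h of TNFα did not. Sites with 0, 1 and 2 or more copies had a peak at 30 min of TNFα in 81.3%, 71.8% and 63.9%, and at 30 min of TWEAK in 85.0%, 74.7% and 66.4%. At 6 h of TNFα the shares were 92.6%, 91.0% and 92.9%, and at 6 h of TWEAK 89.4%, 85.6% and 86.0%. Vehicle peaks had about the same median length in the 3 sets, at 1016, 987 and 998 bp. Among the shortest vehicle peaks, the share at 30 min of TNFα was 51.3%, 38.5% and 26.1% with 0, 1 and 2 or more copies, while the share at 6 h of TNFα was 75.0%, 72.8% and 77.2%. In the same set the TWEAK 30 min list gave 57.0%, 41.7% and 29.2% and the TWEAK 6 h list 67.8%, 59.9% and 59.5%, so that at 6 h of TWEAK sites with a motif also had the lower share. GC content moved with these sets too: by quartile of GC content of the 200 bp, the share at 30 min of TNFα rose from 68.4% to 84.3%. Within each GC quartile the motif share of the late sites stayed above that of the sites in all 4 lists, at 74.6% against 63.0% in the lowest quartile and 49.1% against 30.8% in the highest.

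Other motifs were scanned on both strands in the same windows. The FOXA motif TGTTTAC, bound by forkhead pioneer factors of endoderm, was present at 8.44% of distal acetylated sites, against 2.82% of flanks and 6.46% (6.08 to 6.85%) of unacetylated sites. The TEAD motif CATTCC, bound by partners of YAP, was present at 16.8% against 10.5% of flanks. The RUNX motif TGTGGTT was present at 4.92% against 3.48%, while the GATA motif AGATAA, at 12.0%, was no more frequent than in flanks (12.6%). The ETS motif CCGGAAG was present at 1.97% and the GC box GGGCGG at 8.58%, compared with 12.7% and 49.6% of promoter sites. TGACGTCA, the longer CRE form of the AP-1 and CREB family, was found at 93 sites (0.377%) against 2.17% of promoter sites. The ZEB E-box CACCTG (18.3% against 17.2% of flanks) and the GRHL motif AACCNGGTT (0.154% against 0.140%) were close to the flanks. The NF-κB consensus was present at 2.00% of distal acetylated sites, against 1.91% of flanks and 10.4% (9.52 to 11.3%) of distal sites with RELA or RELB. These sets were split by RELA and RELB peaks, so a difference in this motif is built into the selection. Of the RELA or RELB sites 37.1% lay in tandem repeats, and the share outside them was not counted.

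Sites with several of the other motifs had H3K27ac more often at 30 min of TNFα. The 494 sites with the NF-κB consensus had a peak at 30 min of TNFα in 87.9% (84.6 to 90.6%), against 75.0% (74.4 to 75.5%) of sites without it. For the GC box the shares were 84.7% (83.1 to 86.2%) and 74.4% (73.8 to 74.9%), and for ETS 88.9% (85.8 to 91.5%) and 75.0% (74.4 to 75.5%). For CRE, with 93 sites, they were 95.7% (89.4 to 98.8%) and 75.2% (74.6 to 75.7%). FOXA had 78.0% (76.1 to 79.7%) and 75.0% (74.4 to 75.6%), and the ZEB E-box 78.0% (76.7 to 79.2%) and 74.6% (74.0 to 75.2%). For TEAD the shares were 76.3% (75.0 to 77.6%) and 75.0% (74.4 to 75.6%), with overlapping intervals. The median vehicle fold was also higher with the motif, at 3.87, 3.42 and 3.55 for NF-κB, GC box and ETS, against 3.15, 3.14 and 3.15 without. Of the 11 motifs, AP-1 and GATA alone had a lower share of peaks at 30 min of TNFα where the motif was present with intervals that did not overlap (72.2% against 75.7% for GATA).

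RELA binding near the sites was also examined, since the rule removed only direct overlap. A RELA peak of 30 min of TNFα lay within 10 kb of 3449 sites (14.0%) and inside the vehicle H3K27ac peak of 771 (3.13%). Of these 771 sites, 96.1% had a peak at 30 min of TNFα, compared with 74.6% of the other sites. At 30 min of TWEAK the shares were 95.1% and 77.9%. The vehicle peaks shared with RELA were longer, with a median of 1693 against 983 bp. RELA within 10 kb was found for 15.8% (15.3 to 16.4%) of sites with a peak in all 4 lists, for 8.37% (7.20 to 9.67%) of sites with peaks in both 6 h lists alone and for 9.09% (7.31 to 11.1%) of sites with none. The sites with peaks at 6 h alone were thus less often near early RELA binding than sites with a peak in all 4 lists. The part of peak length in this difference was not tested.

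The 24667 sites fell in 22526 vehicle H3K27ac peaks, of which 20515 held 1 site and 2011 held 2 to 4. Sites that were 3 to 4 to a peak had a peak at 30 min of TNFα in 94.3%, sites in pairs in 88.5% and lone sites in 72.5%, and vehicle peak length rose alongside (medians 2035, 1466 and 899 bp). The 5 peaks with 4 sites lay nearest to ERRFI1, CAMK2N1, BMP10, ACSL3 and FAT2. In the 2501-bp peak near ERRFI1, a feedback inhibitor of EGFR (chr1:8120238-8122738), all 4 sites had a peak at 30 min of both ligands and 3 at 6 h of TNFα. In the 2227-bp peak near CAMK2N1, an inhibitor of CaMKII (chr1:20494021-20496247), 0 of the 4 sites had a peak at 30 min of TNFα, 2 at 30 min of TWEAK and 4 in each 6 h list.

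The sites were assigned to 8407 nearest genes with a median of 2 sites per gene. Among the 10 genes nearest to most sites, MYC had 38 sites up to 977041 bp away, of which 29 and 37 had a peak at 30 min and 6 h of TNFα and 30 and 38 at 30 min and 6 h of TWEAK. MYC encodes a growth-promoting transcription factor with a large distal regulatory domain. LPP, a focal adhesion protein, had 32 sites, with peaks at 22 and 29 of them in the 30 min and 6 h TNFα lists. PDE4D, a cAMP phosphodiesterase, had 28 (23 and 27). TGFBR2, the type II TGF-β receptor, had 28 sites (23 and 27), EFNA5, an ephrin ligand, 25 (16 and 22), RUNX1, a runt family factor, 25 (20 and 23), and MECOM, a zinc finger factor, 24 (20 and 24). Over all sites the TNFα lists held a peak at 75.2% (30 min) and 91.9% (6 h), the shares against which these counts stand.

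The other genes of that list were distant from most of their sites. TPTE had 48 sites, 43 of them more than 1 Mb from its start and 15 in tandem repeats. FOXD4L5 had 32 sites, 10 of them more than 1 Mb away and the median at 628405 bp. ZNF33B had 27 sites, 25 in tandem repeats and none with an AP-1 motif, of which 17 had a peak at 30 min and 15 at 6 h of TNFα. Reads of tandem repeats cannot be placed with certainty, so the sites at ZNF33B are uncertain.

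Genes of chosen pathways were examined for sites within 50 kb of a start, beside 57.8% of all 19618 protein-coding genes (11334 genes) with at least 1 such site and a median of 1 site per gene. All 9 genes of the AP-1 family had a site, with 30 sites in all. Both TNFα lists had a peak at 100% of them and each TWEAK list at 96.7%. FOSL2, another FOS family member, had 7 sites, all in all 4 lists, FOS and FOSB had 4 each and ATF3 had 4, also all in all 4 lists. FOSL1 itself had 1 site, in all 4 lists. Over all sites the share with a peak at 30 min of TNFα was 75.2%.

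Genes of the signaling upstream of AP-1 also had sites. Among MAPK feedback genes, 11 of 12 had a site (42 sites, 83.3% at 30 min and 97.6% at 6 h of TNFα). SPRED2, a RAS inhibitor, had 8 sites and DUSP6, an ERK phosphatase, 6, of which 7 and 4 had a peak at 30 min of TNFα and all had one at 6 h. DUSP1, the phosphatase of stress kinases, had 5 sites in all 4 lists. DUSP5, an ERK phosphatase of the nucleus, and PHLDA1 had 5 sites as well, of which 3 and 4 had a peak at 30 min of TNFα and 4 and 5 at 6 h, and 1 DUSP5 site had none in any treated list. Of the receptors and ligands of the EGFR and MET group, 10 of 11 had a site (41 sites, 82.9% and 92.7%). MET, the hepatocyte growth factor receptor, had 10 sites, all in all 4 lists, and EGFR had 5, of which 4 were in all 4 lists and 1 in the 6 h lists alone. EPGN, an EGFR ligand, also had 5, of which 3 had a peak at 30 min and 4 at 6 h of TNFα. NRG1 had 6 sites, of which 5, 5, 4 and 3 had a peak in the order TNFα 30 min, TNFα 6 h, TWEAK 30 min and TWEAK 6 h.

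Adhesion and matrix genes followed. All 11 genes of the epithelial laminin, its integrins and CD44 had a site (57 sites, 84.2% and 96.5% at 30 min and 6 h of TNFα). ITGA2, a collagen receptor subunit, had 8 sites, ITGB1 had 7, and LAMA3 and ITGA3 had 6 each. At ITGB1 4 of the 7 sites had a peak at 30 min of TNFα. CD44, a hyaluronan receptor, had 5 sites, of which 4 had a peak at 30 min of TNFα, 2 at 30 min of TWEAK and all at 6 h of both. In the urokinase and matrix metalloproteinase group, 12 of 13 genes had a site (30 sites, 93.3% at both times of TNFα). PLAU, urokinase itself, had 5 sites in all 4 lists, and MMP1, MMP3 and MMP13 had 4 each, of which some are shared between these neighbouring genes. Of the YAP and TEAD genes, 12 of 14 had a site (47 sites, 78.7% and 95.7%). WWTR1, the YAP paralog TAZ, had 9 sites with 6 at 30 min of TNFα, YAP1 had 8 in all 4 lists, and TEAD1 had 5, of which 2 had a peak in no treated list.

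The counts for epithelial and lineage genes stand beside the 57.8% of all protein-coding genes with a site within 50 kb. All 14 keratin and junction genes had a site (52 sites, 80.8% and 96.2%), among them S100A2 with 7, and KRT7, KRT8 and CLDN1 with 6 each. At KRT7 3 of the 6 sites had a peak at 30 min and 6 at 6 h of TNFα. Of the 14 pancreatic lineage factors 9 had a site (27 sites, 81.5% and 85.2%), with 7 at FOXA1, 7 at TP63 and 4 at ELF3. GATA6, FOXA2 and PDX1 were among those with none within 50 kb. Of the EMT genes and cadherins 10 of 11 had a site (20 sites, 85.0% and 100%). CDH1, the epithelial cadherin, and TGFBR2 had 5 each and TWIST1 and TGFB2 had 2 each, while ZEB1 and SNAI1 had 1 each. Of the NF-κB feedback and target genes 14 of 22 had a site (41 sites, 87.8% and 97.6%), with 6 at CCL20, 5 at CXCL8, 5 at BCL3 and 5 at TNFRSF1A. The genes with none were BIRC2, TRAF2, NFKB1, REL, RELA, RELB, ICAM1 and TNF. The rule removed FOSL1 peaks that overlapped RELA or RELB, so having none does not mean that no FOSL1 peak lay nearby. The shares of these lists rest on 20 to 57 sites and were not tested against all sites. The 9 of 14 lineage factors and 14 of 22 NF-κB genes with a site were close to the 57.8% of all genes. No count of genes was tested against that share.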

How the data were processed

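FOSL1, H3K27ac, RELA and RELB were measured by ChIP-seq in L3.6pl cells, in 48 samples that the labels put in 16 conditions of 3 replicates. The authors aligned reads with Bowtie2 2.5.0 to hg38 and called peaks with MACS2 (version not given in the sources used here), without its shifting model and with input as background. H3K27ac was called in broad mode and the factors in narrow mode, on the merged replicates of a condition, so that replicate error is lost. A broad peak joins neighbouring enriched stretches, so its length and presence depend on depth and on the calling threshold. In the deposited peak lists the fold enrichment is the ratio of ChIP over local background (the value at the summit in narrow lists, the mean over the region in broad lists), and the deposited −log10 q-value gives the strength of the call. Sequencing depth per sample is unknown from these files, and 0 columns of per-sample values were left unused.

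Sites were chosen as described above, with at least 1 bp for an overlap and with every start of a protein-coding transcript in GENCODE release 44. The members, the gene lists, the motifs and the comparisons were chosen with earlier results of these data known, and the comparison of AP-1 motifs between courses of H3K27ac was added after its shares had been seen. A site had H3K27ac in a list where a peak lay within 500 bp of its FOSL1 summit. Shares carry exact 95% binomial intervals (Clopper-Pearson). Treated lists were compared by the exact McNemar test, adjusted by Benjamini-Hochberg over 6 pairs, and classes of sites by odds ratios with exact intervals. These cover counting over sites only. Where p was too small to be represented, the interval alone is given. Motifs were read from hg38 in 200 bp around the summit, with windows shifted by 2 kb to either side as flanks. A site was counted as tandem repeat where at least a share of 0.4 of the bases in the 1000 bp around it matched those at a shift of up to 400 bp. The named sites are the 5 with the highest FOSL1 fold among sites with a peak in all 4 treated lists and in none, and the 3 highest of each other course. Of those with a peak in all 4 lists, 1 site, which ranks above the third whose sequence is printed, is not reported here. The named genes are the 10 nearest to most sites, and in each list the 3 genes with most sites within 50 kb, with ties. Other list genes named, such as those without a site, were picked after their values were seen.

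Alternatives changed the H3K27ac distance, the q-value threshold, the number of peaks kept, the FOSL1 and promoter limits, the tandem repeats and the unit counted. Sequences were read with pysam 0.24.0 and figures drawn with matplotlib 3.10.9. Tables were handled in pandas 2.3.3 and numpy 2.4.6 under Python 3.11.15, and the exact tests came from scipy 1.17.1. The Mantel-Haenszel odds ratios came from statsmodels. The code for shares, ratios between lists and exact odds ratios was tested on simulated data, and the Mantel-Haenszel odds ratios were not.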

Additional observations from a re-analysis of the deposited data

Results flagged for a closer look

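The odds of having no H3K27ac peak after treatment differed between distal sites without NF-κB and promoter sites in all 4 lists, by Fisher's exact test. For TNFα the odds ratio was 9.63 after 30 min and 8.25 after 6 h, and for TWEAK it was 10.7 after 30 min and 8.88 after 6 h. Vehicle H3K27ac was stronger at promoters, and within strata of vehicle peak strength the ratios lay between 1.61 and 3.10.

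Against distal FOSL1 sites with RELA or RELB, the same test gave an odds ratio of 5.19 for TNFα 30 min, 3.40 for TWEAK 30 min and 1.29 for TWEAK 6 h. Outside tandem repeats they were 12.0, 5.19 and 4.66. No replicate error is behind any of these values.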

How the results depend on the processing

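Over 20 results, 235 values were computed under alternatives, 25 of them chosen after seeing the data. Of the 210 others, 173 kept their direction and their side of the threshold or moved by less than their interval, and none reversed. All 66 values that compare treated lists and all 48 that compare with promoter sites, added ones included, kept their call, and some moved by over 1.5 times. Against promoters the odds ratios, in the order TNFα 30 min, TNFα 6 h, TWEAK 30 min, TWEAK 6 h, were 5.72, 4.89, 6.32 and 5.18 with region overlap, and 5.79, 4.80, 5.88 and 5.36 with starts more than 2500 bp away. At FOSL1 fold of 5 or more those for TWEAK were 6.75 and 5.48, and with 1 start per gene that for TWEAK 6 h was 13.5. Between treated lists, TNFα 30 min against 6 h moved to 0.175 and TWEAK 30 min against 6 h to 0.571 with region overlap. At q of 0.001 or less, TWEAK 30 min against 6 h moved to 0.560 and TNFα 6 h against TWEAK 6 h to 4.66.

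The shares of sites with H3K27ac moved beyond their interval under several definitions, given in the order TNFα 30 min, TNFα 6 h, TWEAK 30 min, TWEAK 6 h where all moved. They were 74.2%, 88.8%, 77.2% and 82.0% with the peak overlapping the FOSL1 region, 69.0%, 88.7%, 73.6% and 79.0% with H3K27ac peaks at q of 0.001 or less, and 76.9%, 89.3%, 79.5% and 86.3% with the 45000 strongest peaks of each list. They were 74.7%, 92.9%, 77.8% and 88.2% for FOSL1 fold of 5 or more, 76.6%, 92.3%, 79.7% and 88.0% with 1 start per gene, and 74.0%, 91.3%, 77.4% and 86.5% with 1 unit per vehicle peak. Within 1000 bp they moved to 76.3% (TNFα 30 min), 79.4% (TWEAK 30 min) and 87.9% (TWEAK 6 h). Without RELA or RELB within 1000 bp they moved to 74.5% (TNFα 30 min) and 77.9% (TWEAK 30 min).

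At 6 h of TNFα the odds ratio against RELA or RELB sites, 1.09, passed the threshold at 1.21 with region overlap, 1.43 at the stricter q, 1.37 with the 45000 strongest peaks, 1.83 at FOSL1 fold of 5 or more, 1.18 without RELA or RELB within 1000 bp, 1.19 per vehicle peak and 8.88 outside tandem repeats. Within strata of vehicle peak strength it was 1.26, and 6.44 within strata outside tandem repeats. The AP-1 odds ratio against unacetylated sites lost its call over the whole FOSL1 region (0.995). It fell to 0.730 outside tandem repeats, 0.718 at FOSL1 fold of 5 or more and 0.833 at H3K27ac q of 0.001 or less. The causes were not tested. The AP-1 odds ratio between courses lay between 2.10 and 2.88.

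No paired analysis was possible because the replicates of each condition were merged before peak calling. For the same reason no value without a replicate exists here.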
